A study of Sus scrofa with 15 samples.

Results

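The 3 libraries of the group labelled implantation B were compared with the 3 labelled normal, 6 of the 15 polyadenylated RNA libraries sequenced from penile corpus cavernosum of pig (Sus scrofa). The series holds 5 groups of 3 libraries each, and the other groups are implantation A, defect and ECs+ implantation. The study's design text pairs normal, defect and implantation A with each other and implantation B with ECs+ implantation, so implantation B against normal is not one of its own pairs. What ECs stands for and what sets implantation A apart from implantation B are not written out in the labels, which also give no strain, age, treatment or time after surgery. Nothing states that replicates are separate animals, so the p-values below reflect only how far these libraries scatter, and that scatter may be technical. Every library was selected by its title alone.

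The corpus cavernosum is the erectile tissue of the penis: blood spaces lined by endothelium run through trabeculae of smooth muscle and collagen-rich connective tissue. Nitric oxide made by endothelium and nerves raises cyclic GMP in the muscle, which relaxes and lets the spaces fill, and phosphodiesterases end the signal by breaking cyclic GMP down. In a healing or grafted tissue, fibroblasts lay down collagen, macrophages enter, and immediate early genes such as FOS can be switched on within minutes by stretch, injury or growth factors.

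Total gene counts ran from 17234169 to 19526875 in implantation B and from 17375064 to 17580898 in normal, so depth differed little. The defect libraries held 207769, 250178 and 17703564 counts, so a gene of low level can be missed in the first 2, and the group enters no comparison below; its levels are given only where stated. Levels are given as CPM, counts over the library total, scaled by TMM factors, and differences as log2 fold changes with their standard error (SE), tested in edgeR's quasi-likelihood framework with Benjamini-Hochberg adjustment over all 17485 tested genes. All tissue markers that were set for the check were present in both groups: MYH11, ACTA2 and CNN1 for smooth muscle, PECAM1, CDH5 and VWF for endothelium, and COL1A1, PDGFRA and DCN for fibroblasts. The 18S ribosomal RNA gene RN18S took 0.178% ± 0.00375 (SD, n = 3) of the counts in implantation B and 0.519% ± 0.0407 (SD, n = 3) in normal, and 13.6% of counts fell on COL1A1, COL1A2, COL3A1 and SPARC in implantation B against 2.25% in normal. The biological coefficient of variation was 2.13% in implantation B and 6.18% in normal.

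The 2 tissues differed in most of their measured genes. In implantation B 6639 genes were higher and 6595 lower at an adjusted p under 0.05, or 38% and 37.7% of those tested and 75.7% in either direction. At least 2-fold changes were passed by 2209 genes upward and 2291 downward, or 12.6% and 13.1%, and 25.7% in either direction. These shares are the background against which the gene lists below are read, and the median log2 fold change over all tested genes was -0.0193. The split between higher and lower depends on the scaling: with library totals alone 4525 genes were higher and 9064 lower, because the median of all genes then stood at -0.32, and with upper quartile factors it stood at -0.136. The length of the gene on the chromosome moved with the difference. When the genes were ranked by span in the RefSeq annotation and cut into 4 equal groups, the median log2 fold change was -0.326 in the group of shortest span (up to 9.4 kb) and 0.297 in that of longest span (from 64.8 kb). The part of this in any gene list was not tested. The plot of fold change against level shows the immediate early genes and type I collagen far above the other abundant genes.

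**Figure D1:**
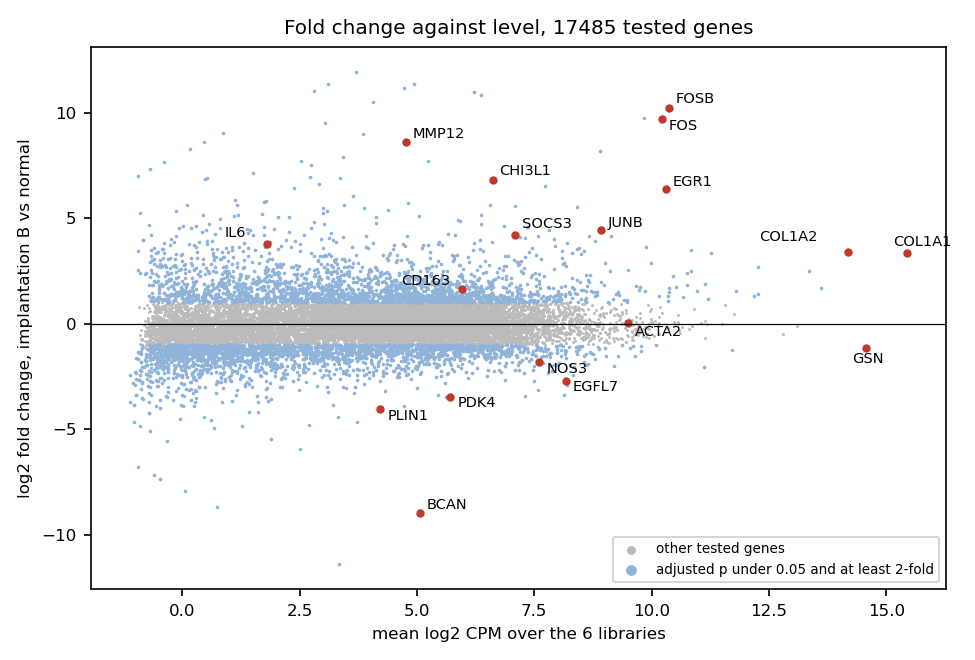
Log2 fold change of implantation B against normal (vertical axis) for each of 17485 tested genes, against its mean log2 CPM over the 6 libraries (horizontal axis). Blue points passed an adjusted p of 0.05 with at least a 2-fold change, grey points did not, and red points are genes named in the text. FOS and FOSB lie near the top among abundant genes, COL1A1 is the most abundant gene that rose, and BCAN lies lowest of the named genes.

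Immediate early transcription factors were far higher in implantation B than in normal. FOS, a subunit of the AP-1 transcription factor (chromosome 7, 98449508 to 98451971, Sscrofa11.1), was measured at 2372, 2383 and 2387 CPM in the libraries of implantation B and at 3.43, 2.48 and 2.66 CPM in those of normal. The 2 groups lay far apart, and the log2 fold change was 9.70 (SE 0.096, adjusted p = 1.35e-31, edgeR), a 832-fold rise. FOSB, its close relative, rose from 2.2 ± 0.225 to 2629 ± 25.3 CPM (mean ± SD, n = 3), a log2 fold change of 10.22 (SE 0.099). EGR1, a zinc finger factor of the same early wave (chromosome 2, 140440829 to 140445302), stood at 2494, 2528 and 2453 CPM in implantation B and 31.7, 30.2 and 28.2 CPM in normal, a log2 fold change of 6.38 (SE 0.044). JUNB, a partner of FOS in AP-1, rose by 4.43 and NR4A2, an orphan nuclear receptor, by 3.99 on the log2 scale. In all, 23 of 24 tested members rose and none fell, 20 of them at least 2-fold, with a median log2 fold change of 2.59. The member that did not pass was KLF2, a factor induced by laminar flow in endothelium, with a log2 fold change of 0.079 (adjusted p = 0.386), though it passed at 0.21 without normal 1 (adjusted p = 0.000161). EGR4 did not pass the filter on low counts, and NR4A1 was not analysed here.

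FOS and EGR1 were above normal in the other implantation groups too, but to a smaller extent. FOS stood at 81.4 to 89.7 CPM in implantation A and at 726 to 785 CPM in ECs+ implantation, when all 15 libraries were scaled together. Both groups thus lay between normal and implantation B, and the log2 difference of implantation B from implantation A was 4.83 (SE 0.036, adjusted p = 5.16e-41, edgeR). EGR1 followed the same order, with 146 to 156 CPM in implantation A and 472 to 496 CPM in ECs+ implantation. Against implantation A, 23 of 24 members were higher in implantation B, where 28.6% of all genes were, and the exception was SRF (-0.27), the serum response factor that drives many of these genes. For 13 of the 24 members (54.2%) all 6 libraries of implantation B and ECs+ implantation lay above all 6 of normal and implantation A, against 10.5% of all tested genes. The design text pairs these same 2 groups, and the labels name no sequencing run or collection date, so a difference between sets of samples and a difference between groups cannot be told apart here.

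**Figure D2:**
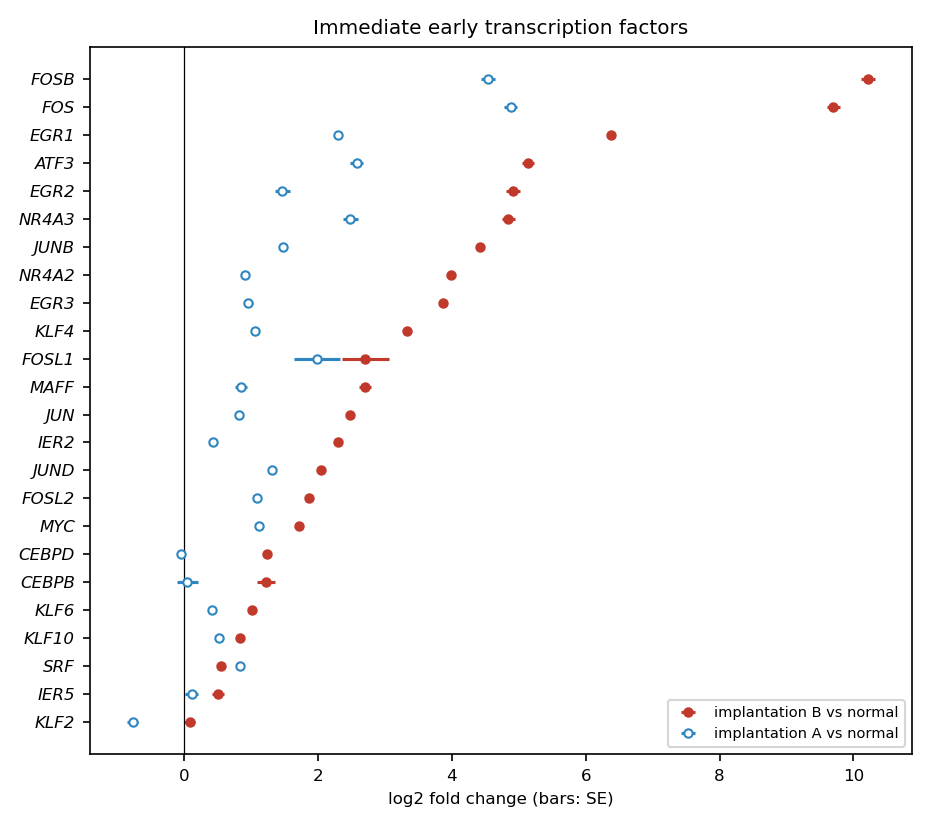
Log2 fold change (horizontal axis, bars: SE) of each tested immediate early transcription factor in implantation B against normal (filled red) and in implantation A against normal (open blue), which share the 3 normal libraries. FOSB and FOS stand at 10.22 and 9.70 in implantation B and at 4.54 and 4.88 in implantation A, and SRF is the 1 member that lies higher in implantation A.

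Most genes of a list of MAP kinase phosphatases and mRNA decay factors rose as well, among them genes that switch this early response off again. DUSP1, a phosphatase that inactivates MAP kinases, rose by 4.15 on the log2 scale (SE 0.04), from 60.3 ± 2.49 to 1071 ± 8.06 CPM. BTG2, an antiproliferative factor that speeds mRNA deadenylation, rose by 3.53, and ZFP36, which targets cytokine mRNAs for decay, by 3.44. CYR61 (CCN1), which is on the list but is a matrix-bound signalling protein induced by serum and stretch, rose by 4.59. Of 23 members, 19 rose and 2 fell, GADD45G (-0.65) and DUSP4 (-0.49), and the median was 1.41. In implantation A against normal the median of the same list was 0.45, and 19 members were higher in implantation B by the direct test. BTG2 went in opposite directions, at -0.41 in implantation A and 3.53 in implantation B against the same normal libraries. For 12 of the 23 members (52.2%) all libraries of implantation B and ECs+ implantation lay above all those of normal and implantation A. Of all tested genes 10.5% did so, and here too sets of samples and groups cannot be told apart.

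Inflammatory signals were higher in implantation B, mostly from low levels. IL6, the cytokine of the acute phase response (chromosome 9, 91506421 to 91510830), was measured at 7.18, 6.29 and 6.73 CPM in implantation B and 0.52, 0.465 and 0.461 CPM in normal. The libraries did not overlap, and the log2 fold change was 3.79 (SE 0.28, adjusted p = 1.7e-13, edgeR). In implantation A it stood at 0.486 to 0.554 CPM and in ECs+ implantation at 0.329 to 0.606 CPM, close to the normal libraries, and the log2 difference of implantation B from implantation A was 3.72 (adjusted p = 4.74e-16). The defect libraries, 2 of them shallow, held IL6 at 4.61, 0 and 5.2 CPM. CCL2, which attracts monocytes, rose by 3.24, and PTGS2, the inducible cyclooxygenase, rose by 2.48, from 3.66 ± 0.405 to 20.5 ± 1.44 CPM. CXCL8, a neutrophil attractant, had 102 counts in implantation B and 2 in normal, a ratio of scaled counts of 59.7 with a 95% exact interval of 16.1 to 500.0 that covers counting error only. Unlike IL6, these 3 were not lower in ECs+ implantation than in implantation B, with all 15 libraries scaled together. CCL2 stood at 42.7 to 47.9 CPM there and 36.6 to 37.4 CPM in implantation B. PTGS2 stood at 29.9 to 31.9 and 19.9 to 22.7 CPM, and CXCL8 overlapped, at 1.75 to 4.13 and 1.64 to 2.35 CPM. Of 22 tested cytokines, chemokines and related genes 18 rose, 3 fell and IL11 did not pass (0.31), with a median of 1.51. The 3 that fell were PTX3, a soluble pattern recognition protein (-1.52), the T cell attractant CCL5 (-1.40) and the granulocyte growth factor CSF3 (-0.79). PTX3 alone fell from 317 ± 10.6 to 111 ± 5.52 CPM, and the summed level of the list was lower in implantation B, at 539.6 to 552 CPM against 681 to 696 CPM by library totals, while its median rose. For 10 of the 22 members (45.5%) all 6 libraries of implantation B and ECs+ implantation lay above all 6 of normal and implantation A. Of all tested genes 10.5% did so. Again, a difference between sets of samples and a difference between groups cannot be told apart.

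Receptors and feedback genes of these signals rose in part. SOCS3, the feedback inhibitor of IL6-type receptors, was measured at 267, 261 and 261 CPM in implantation B and 14.7, 14.9 and 12.9 CPM in normal, 4.21 on the log2 scale (SE 0.061, adjusted p = 1.84e-25, edgeR). STAT3, the transcription factor downstream of those receptors, rose by 1.10. Of 18 members of this list 12 rose and 4 fell (IL11RA, STAT6, SOCS2 and STAT5A), with a median of 0.63. NF-kappa-B genes and their feedback targets were mixed, with 7 of 15 higher and 3 lower, and their median of 0.11 turned to -0.189 with library totals and to -0.00572 with upper quartile factors. IER3, an early survival gene, rose by 4.71 and NFKBIZ, an inducible regulator of NF-kappa-B, by 2.75. Of 8 genes by which vessels hold leukocytes, 6 rose, led by E-selectin, SELE, at 3.76 (SE 0.11), and CD93 (-0.62) and JAM2 (-0.22) fell. For 5 of these 8 (62.5%) all libraries of implantation B and ECs+ implantation lay above all those of normal and implantation A. That was so for 10.5% of all tested genes, so sets of samples and groups cannot be told apart in this list.

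Interferon-stimulated genes rose in both implantation groups, with medians close to each other. Of 24 members 20 rose in implantation B with a median of 1.06, and the median in implantation A was 1.07 against the same normal libraries. OASL, of the oligoadenylate synthetase family, rose by 4.08, the antiviral GTPase MX2 by 2.39, and the ubiquitin-like modifier ISG15 by 1.91. The member that fell was IRF9 (-0.24), a subunit of the factor that drives the list. By the direct test of the 2 implantation groups 7 members were higher and 6 lower in implantation B, where 28.6% and 25% of all genes were.

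Macrophage markers were higher in implantation B. CD163, a scavenger receptor of tissue macrophages, stood at 95.2, 97.3 and 93.7 CPM in implantation B and 30.9, 30.7 and 30.2 CPM in normal, 1.64 on the log2 scale (SE 0.056, adjusted p = 6.96e-18, edgeR). It was lower than normal in implantation A (17.5 to 19.1 CPM, log2 fold change -0.75) and stood at 11.5 to 13.9 CPM in ECs+ implantation, so implantation B was the highest of these 4 groups without overlap. The defect libraries, with the depths given above, stood at 83, 94.8 and 109 CPM, a range that holds implantation B. MRC1, the mannose receptor, rose by 2.48, GPNMB, a glycoprotein of lipid-laden macrophages, by 2.75, lysozyme, LYZ, by 5.06, and CD68 by 0.84. In all, 17 of 18 markers rose and none fell, with a median of 0.90, and CD14 did not pass (-0.037), though it passed as lower with upper quartile factors (-0.15, adjusted p = 0.038) and library totals (-0.34, adjusted p = 9.22e-05). In implantation A against normal, where 33.2% of all genes rose and 32.7% fell, 4 rose and 9 fell, with a median of -0.30, and by the direct test all 18 were higher in implantation B than in implantation A. For 9 of the 18 markers (50%) all libraries of implantation B and ECs+ implantation lay above all those of normal and implantation A. CD163 was not among them, so its low level in ECs+ implantation does not stand for the list. Of all tested genes 10.5% lay above in this way, and 0 of the markers lay below. For this list too, a difference between sets of samples and a difference between groups cannot be told apart. In bulk tissue, more cells of a type and more RNA per cell cannot be told apart, here and for every cell type below.

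Neutrophil markers rose in 9 of 9 cases, all at least 2-fold, with a median of 2.0. Some were of low level: PADI4, FCN1 and CXCR2 stood at 1.18 CPM or less in implantation B, with all 15 libraries scaled together. In implantation A against normal 7 of the 9 rose, where 33.2% of all genes did, with a median of 1.31. S100A8, a calcium-binding alarmin, was measured at 218, 223 and 220.3 CPM in implantation B and 66.2, 70.6 and 66.4 CPM in normal, a log2 fold change of 1.70 (SE 0.046), and its partner S100A9 rose by 1.76. S100A8 stood at 167 to 175 CPM in implantation A and at 0.0524 to 0.11 CPM in ECs+ implantation. Squamous epithelium also makes S100A8, S100A9 and S100A12, and the summed level of the keratinocyte and urothelial list rose as well, from 1908 to 1976 CPM in normal to 3928 to 3991 CPM in implantation B, and its part in these rises was not tested. MMP9, the gelatinase of neutrophils and macrophages, rose by 2.96. T and NK cell markers gave no common direction, with 4 of 13 higher (CD4, IL7R, NKG7 and CD2) and 3 lower (CD8A, LCK and CD6), and the T cell receptor subunit CD3E did not pass (-0.17, adjusted p = 0.574). CD4 rose by 1.87. LCK did not pass without implantation B 3 (adjusted p = 0.0519) or normal 2 (0.0644), nor CD6 without implantation B 1 or 2 or normal 1 or 3 (0.0865 to 0.151), in DESeq2 (0.188), in limma-voom (0.123), with no filter on low counts (0.0758), with a replicate block (0.0503), or with 15 or 12 libraries in the fit (0.0552 and 0.0642). Of 13 genes of class I antigen presentation 9 fell and 2 rose, and of 11 class II genes 6 fell and 3 rose. Against implantation A 7 class II genes were higher in implantation B and 2 lower. Those that fell from normal include NLRC5, the class I transactivator (-1.02), CIITA, the class II transactivator (-0.96), and CD74, the invariant chain (-1.07). The SLA genes themselves are near-identical copies whose reads can be split differently by counting, so their single values are uncertain.

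**Figure D3:**
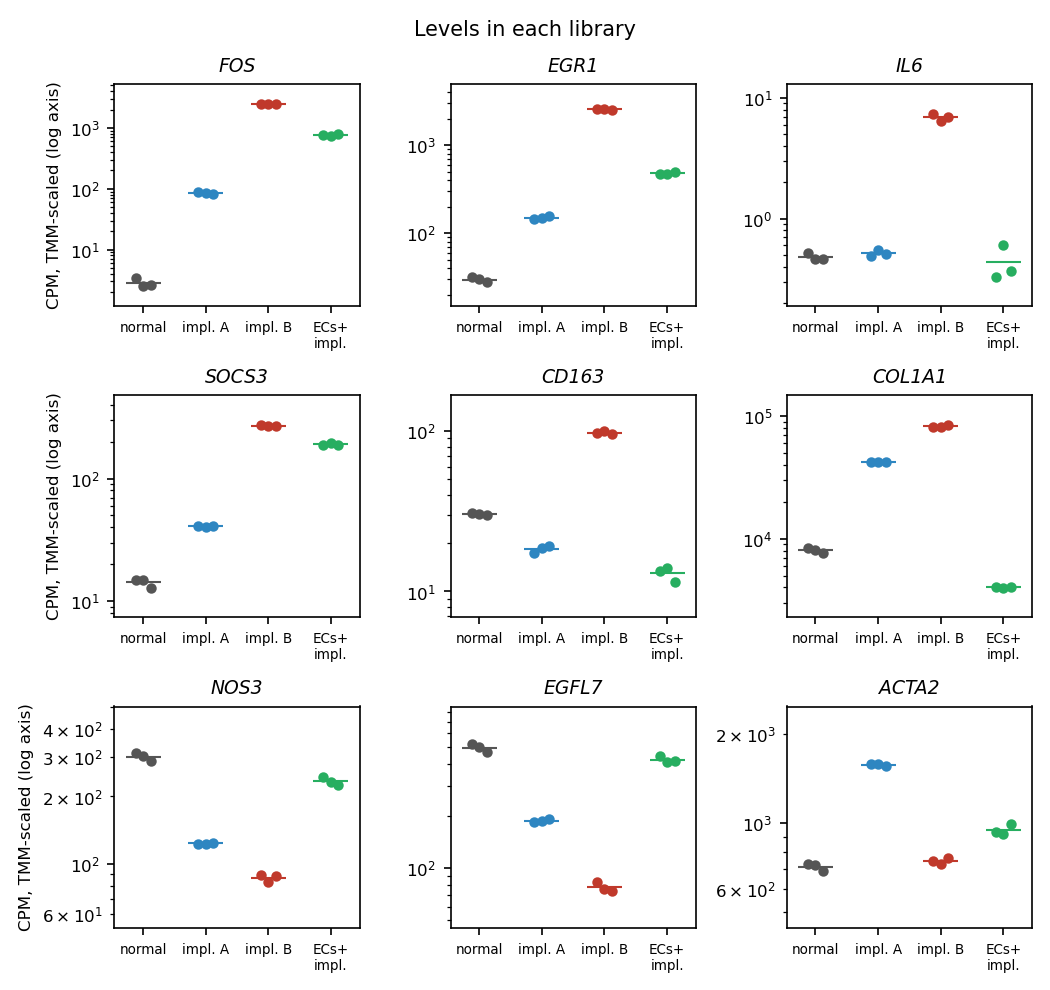
TMM-scaled CPM (log axis) of 9 genes in each library of the normal, implantation A, implantation B and ECs+ implantation groups. Points are libraries and lines are group means. FOS, EGR1, IL6, SOCS3, CD163 and COL1A1 are highest in implantation B of the groups shown, NOS3 and EGFL7 are lowest there, and ACTA2 in implantation B lies close to normal.

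Fibrillar collagen genes were among the most abundant of those that rose. COL1A1, the main chain of type I collagen (chromosome 12, 26379087 to 26397180), was measured at 80169, 80324 and 82240 CPM in implantation B and 8365, 8060 and 7704 CPM in normal. Every library of implantation B lay about an order of magnitude above every normal library, and the log2 fold change was 3.33 (SE 0.029, adjusted p = 2.24e-28, edgeR). The gene took 7.29% ± 0.0891 (SD, n = 3) of all counts in implantation B and 0.891% ± 0.0246 in normal. COL1A2, its partner chain, rose by 3.40, COL3A1, the type III collagen of soft and early scar tissue, by 2.50, and COL2A1, the collagen of cartilage, by 5.53. Of 11 fibrillar collagen genes 9 rose, with a median of 1.74, COL27A1 fell (-0.69) and COL5A3 did not pass (-0.068). In edgeR COL5A3 did pass as lower without normal 3 (adjusted p = 0.0432), with upper quartile factors (-0.18) and with library totals (-0.37). It also passed as lower in limma-voom (adjusted p = 0.0374) and in limma-trend on both forms of log2 TPM (0.0434 and 0.0431). All 9 tested members of the list of other matrix collagens rose, with a median of 3.18, among them COL14A1, which decorates collagen fibrils (3.61), COL6A3 (2.66), COL12A1 (3.31) and COL8A1 (3.18). COL1A1 was lower in implantation A, at 41965 to 42182 CPM, and lower still in ECs+ implantation, at 3988 to 4052 CPM, which lay below the normal libraries. The defect libraries, 2 of them shallow, held COL1A1 at 63284, 70219 and 79495 CPM. COL3A1 stood there at 30365, 30614 and 38436 CPM, above implantation B at 17877 to 18226 CPM, with all 15 libraries scaled together.

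The proteins that bind, cut and join collagen mostly followed. All 16 genes of the list of tendon-like matrix rose, 13 of them at least 2-fold, with a median of 2.30. DCN, or decorin, which binds collagen fibrils, rose by 3.49, the corneal proteoglycan keratocan, KERA, by 4.45, fibromodulin, FMOD, by 2.38, and tenascin C, TNC, by 2.87. Among 18 processing and crosslinking enzymes 11 rose and 2 fell (ADAMTS14 and BMP1), with ADAMTS2, a procollagen peptidase, at 3.09 and LOX, lysyl oxidase, at 2.98. Of 15 elastic fibre genes 12 rose and EFEMP2 fell (-0.29), with a median of 0.92. Elastin, ELN, was measured at 3901, 3898 and 3900 CPM in implantation B and 2259, 2113 and 2013 CPM in normal, a log2 fold change of 0.87, whereas in implantation A it was -0.0053 (adjusted p = 0.886). Basement membrane genes showed no common direction: 11 of 19 rose and 5 fell, and the median of 0.12 turned to -0.178 with library totals. Within it the laminin chain LAMA2 of muscle rose (1.48), and the vascular and epithelial chain LAMA5 (-1.11) and agrin, AGRN (-1.20), fell.

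Matrix-degrading enzymes and the genes of activated fibroblasts rose in part. MMP12, the elastase of macrophages, had 2784 counts in implantation B and 8 in normal, a ratio of 407 (95% exact interval 206 to 945, counting error only). MMP3, or stromelysin, rose by 5.57 (SE 0.085), from 5.66 ± 0.831 to 269 ± 4.09 CPM, and TIMP2, an inhibitor of these enzymes, by 1.85. In all 12 of 19 members of the list rose and 6 fell. POSTN, periostin, a matrix protein of wounds and ligaments, rose from 437 ± 45.4 to 4486 ± 11.6 CPM, a log2 fold change of 3.36 (SE 0.055). CTGF, connective tissue growth factor, rose by 3.69 and fibronectin, FN1, by 1.89. Of 14 activated fibroblast genes 9 rose, and 4 fell: TAGLN (-0.67), SPP1 (-1.31), PDGFRB (-0.28) and INHBA (-0.23), the last not without implantation B 3 (adjusted p = 0.0984). ACTA2, the smooth muscle actin that marks myofibroblasts, did not pass. Resting fibroblast markers rose in 9 and fell in 4 of 14 cases, with PDGFRA at 1.27, the complement gene C7 at 2.93 and gelsolin, GSN, at -1.17.

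TGF-beta genes changed in both directions. The ligand genes TGFB2 (2.05) and TGFB3 (1.57) rose, while TGFB1 fell, from 125 ± 7.06 to 83.5 ± 3.12 CPM, a log2 fold change of -0.59 (SE 0.052). Among the targets, TGFBI, a secreted matrix protein, rose by 3.06. The endothelial receptors ACVRL1 (-1.31) and ENG (-0.47) fell. Altogether 13 of 20 members rose and 6 fell, with a median of 0.76.

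**Figure D4:**
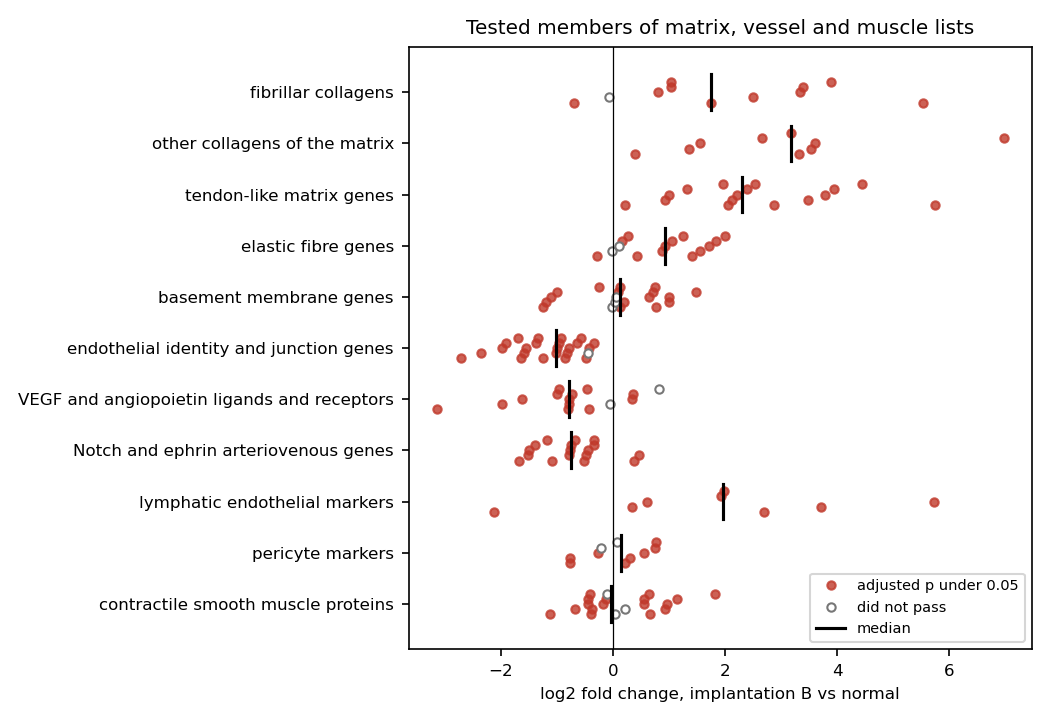
Log2 fold change of implantation B against normal (horizontal axis) for every tested member of 11 lists of matrix, vessel and muscle genes. Filled points passed an adjusted p of 0.05, open points did not, and the black line is the median of the list. The collagen and tendon-like lists lie to the right of 0, the endothelial list to the left, and contractile smooth muscle proteins on both sides.

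Endothelial genes were lower in implantation B almost throughout. NOS3, which makes nitric oxide in endothelium (chromosome 18, 6209218 to 6228912), was measured at 87.4, 81.1 and 86.4 CPM in implantation B and 314, 303 and 289 CPM in normal. The groups did not overlap, and the log2 fold change was -1.83 (SE 0.046, adjusted p = 2.89e-20, edgeR). EGFL7, a matrix protein secreted by endothelium, stood at 81.5, 73.8 and 72.4 CPM in implantation B and 519, 505 and 469.6 CPM in normal, the lowest fold change of its list at -2.71 (SE 0.049). The tight junction gene CLDN5 fell by 2.35, the receptor TIE1 by 1.98 and the lectin CLEC14A by 1.55 on the log2 scale. General endothelial markers fell less: CDH5, VE-cadherin, changed by -1.25, PECAM1 by -0.64, VWF by -0.56 and the VEGF receptor KDR by -0.43. Of 24 members 23 fell and none rose, with a median of -1.01, and CLDN15 did not pass (-0.45). All 24 fell in implantation A too, with a median of -0.71, and by the direct test 18 were lower still in implantation B and 1, CD34 (0.21), was higher. In ECs+ implantation NOS3 stood at 226 to 243 CPM, between implantation A (123 to 124 CPM) and normal.

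Signals that build vessels fell or rose by family. VEGFA, the main growth factor of endothelium, fell from 204 ± 10.5 to 105 ± 2.3 CPM, a log2 fold change of -0.96 (SE 0.047). Of 15 VEGF and angiopoietin genes 11 fell, among them ANGPT4 (-3.14) and the placental growth factor PGF (-1.62), and the lymphatic genes FLT4 (0.35) and VEGFC (0.36) rose, though neither passed with library totals (0.046 and 0.063). Notch and ephrin genes, which set arterial against venous identity, fell in 15 of 17 cases with a median of -0.74, among them the ligand JAG2 (-1.67), EFNA1 (-1.17) and the receptor NOTCH4 (-1.51). The targets HEY2 (0.47) and HES1 (0.37) rose, the latter not with library totals (0.072). For 8 of these 17 genes (47.1%) all libraries of implantation B and ECs+ implantation lay below all those of normal and implantation A. That was so for 7.13% of all tested genes, so sets of samples and groups cannot be told apart in this list. The list of other vessel growth signals moved upward, with 15 of 18 higher and a median of 1.70. It holds inhibitors as well as stimulators: the antiangiogenic thrombospondins THBS1 and THBS2 rose by 4.09 and 3.84, the scavenger receptor ACKR3 by 2.61 and the growth factor PDGFD by 2.91, and ANGPTL4 (-1.49), the apelin receptor APLNR (-0.98) and ADM5 (-0.71) fell. ADM5 did not pass when normal 1 or any 1 library of implantation B was left out (adjusted p of 0.0542 to 0.157).

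Lymphatic endothelial markers went against the blood endothelial ones. 7 of 8 rose, with a median of 1.95, and TBX1 fell (-2.11). CCL21, the chemokine by which lymphatic vessels attract dendritic cells, rose from 1.07 ± 0.126 to 56.9 ± 2.54 CPM, a log2 fold change of 5.73 (SE 0.18). PROX1, the master regulator of lymphatic identity, rose by less, at 0.60, and PDPN, podoplanin, by 1.93. The list of capillary and endothelial metabolism genes had no common direction, with 5 of 13 higher and 6 lower, and its median of 0.079 turned to -0.22 with library totals and to -0.0381 with upper quartile factors. Within it GPIHBP1, which holds lipoprotein lipase on capillaries, fell by 3.29, and the water channel AQP1 rose by 1.72.

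Contractile smooth muscle genes gave no common shift from normal. ACTA2 was measured at 730.0, 713 and 745 CPM in implantation B and 728, 722 and 694 CPM in normal, and the libraries overlapped. Its log2 fold change was 0.029 with a 95% interval of -0.0399 to 0.0976 (adjusted p = 0.462), a value that turned to -0.27 with library totals and -0.09 with upper quartile factors. Smooth muscle myosin, MYH11, was slightly lower at -0.13 (SE 0.032), and desmin, DES, did not pass (-0.098, adjusted p = 0.0559) except without normal 3 (adjusted p = 0.00336) and under other scalings. Of 20 members 8 rose, among them SYNPO2 (1.82) and the myosin kinase MYLK (0.92), and 9 fell, among them smoothelin, SMTN (-1.12), and the transgelin gene TAGLN (-0.67). The median of -0.035 turned to 0.007 without normal 1. Implantation A differed here from implantation B: 19 of the same genes rose against normal, with a median of 0.72, and 18 were lower in implantation B than in implantation A. ACTA2 stood at 1561 to 1589 CPM there, a log2 difference of implantation B from implantation A of -1.09 (SE 0.029, adjusted p = 7.97e-26, edgeR).

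The nitric oxide and cyclic GMP pathway, by which erection is started and ended, was mixed beyond the fall of NOS3. The neuronal and inducible synthases NOS1 (-2.15) and NOS2 (-1.80) fell too. NOS1 lay near the floor, so its fold change rests on few counts. With all 15 libraries scaled together it stood at 0.117 to 0.329 CPM in implantation B and 0.876 to 1.27 CPM in normal. PDE5A, the phosphodiesterase that breaks cyclic GMP down and is the target of sildenafil, was measured at 97, 103 and 96.4 CPM in implantation B and 36.2, 37.1 and 44.6 CPM in normal, a log2 fold change of 1.33 (SE 0.067). PRKG1, the kinase that cyclic GMP activates, rose by 1.11, and GUCY1A3 (GUCY1A1), a subunit of the soluble guanylate cyclase that senses nitric oxide, fell by 0.31. In all 6 of 16 members rose and 7 fell, and the median of 0.018 turned to -0.283 with library totals and -0.098 with upper quartile factors. Of 21 ion channels and vasoactive receptors 12 rose and 5 fell. The large-conductance potassium channel KCNMA1 rose by 2.84, the prostaglandin receptor PTGER2 by 3.24, the adrenergic receptor ADRA2A by 1.63 and the kinase ROCK1, which sustains contraction, by 1.35. Pericyte markers were split, 5 higher and 3 lower of 10, with a median of 0.14 that turned to -0.164 with library totals, and NOTCH3 (-0.76) fell while ANPEP (0.74) rose.

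Genes of protein folding in the endoplasmic reticulum rose together. HSPA5, the main chaperone of that compartment, was measured at 277, 278 and 286 CPM in implantation B and 89.7, 96.7 and 105 CPM in normal, 1.53 on the log2 scale (SE 0.05, adjusted p = 3.94e-18, edgeR). HSP90B1 rose by 1.29, the disulfide isomerase PDIA3 by 1.18 and XBP1, a transcription factor of secretory cells, by 1.07. 21 of 22 members rose, with a median of 1.01, and DDIT3, the gene of the damage branch of this response, did not pass (0.019). In implantation A the median was 0.42, and 21 of the members were higher in implantation B than in implantation A. For 8 of the 22 (36.4%) all libraries of implantation B and ECs+ implantation lay above all those of normal and implantation A. Of all tested genes 10.5% did so, and sets of samples and groups cannot be told apart in this list. Cytosolic chaperones rose in 14 and fell in 4 of 19 cases, among them HSPA8 at 1.39 and HSP90AA1 at 0.90, and HSPA1A was not analysed here.

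Metabolic genes changed at single points more than as lists. PDK4, which blocks entry of pyruvate into the mitochondrion, was measured at 8.15, 8.28 and 8.84 CPM in implantation B and 87.6, 91.2 and 102 CPM in normal, a log2 fold change of -3.47 (SE 0.088), and its neighbour ASB4 overlaps it in the annotation. CPT1A, the gate of fatty acid oxidation, fell by 1.73, PDK1 rose by 1.28, and the list was split, 5 higher and 7 lower of 15. The fall of PDK4 did not set the 2 implantation groups apart, with a log2 difference of 0.11 between them (adjusted p = 0.381). HIF1A, the oxygen-sensing factor, rose by 2.37 and hexokinase 2, HK2, by 2.45, but 11 of 21 hypoxia and glycolysis genes rose and 5 fell, and their median of 0.27 turned to -0.0326 with library totals. Nuclear respiratory chain subunits were 5 higher, 3 lower and 6 not past the test, with a median of 0.13 that turned to -0.17 with library totals. All 24 ribosomal protein genes fell, by a median of -0.41 in implantation B and -0.38 in implantation A. Ribosomal protein genes are mostly short, and the group of genes with the shortest span had a median of -0.326; the part of span in this fall was not tested.

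**Figure D5:**
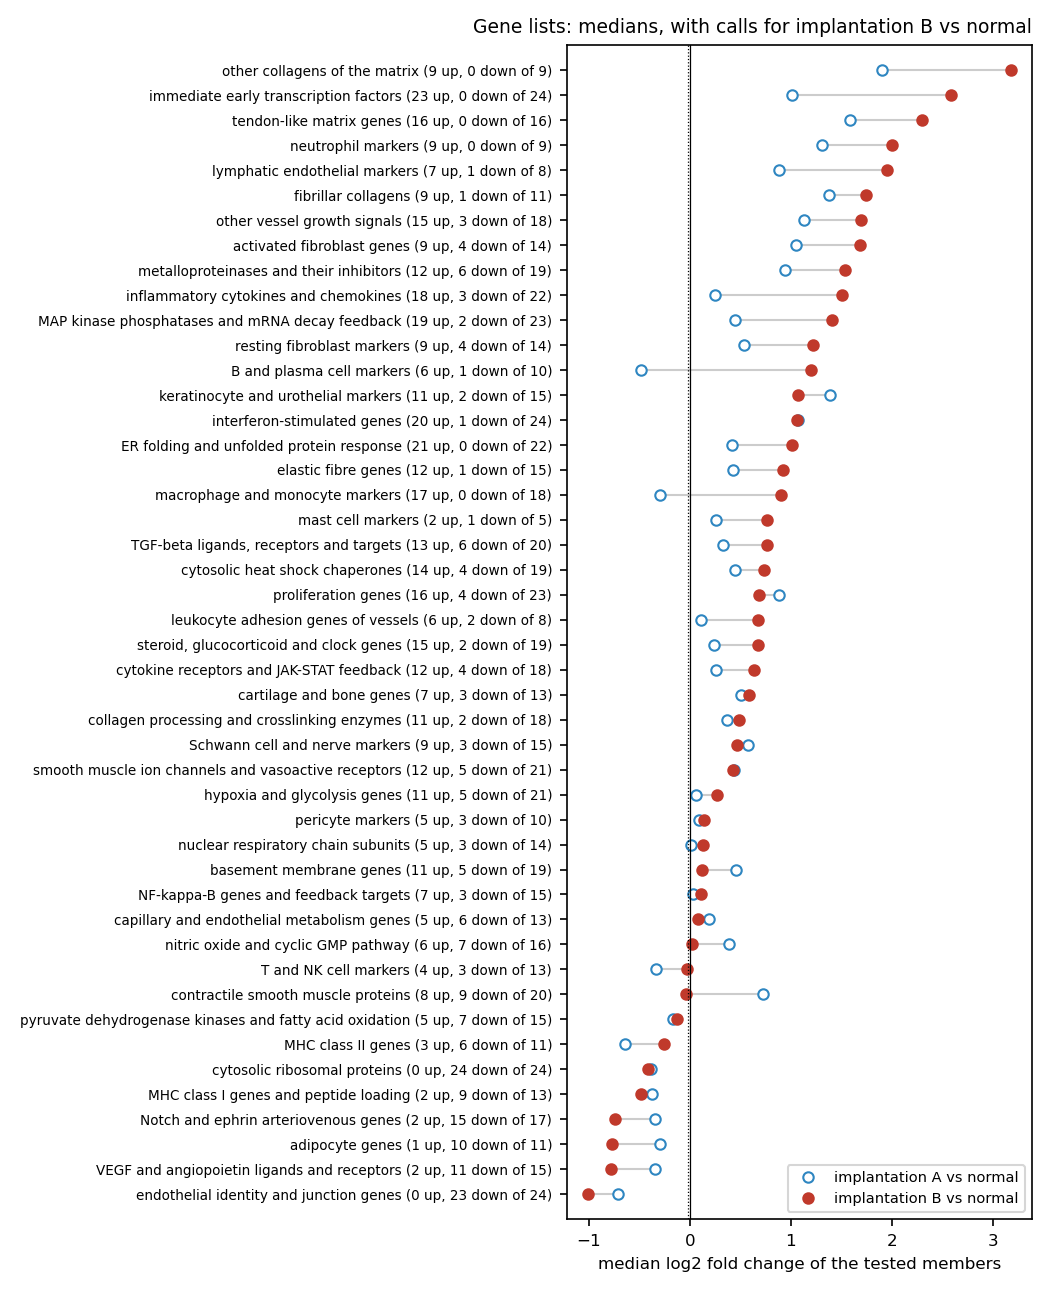
Median log2 fold change (horizontal axis) of the tested members of each gene list in implantation B against normal (filled red) and implantation A against normal (open blue), which share the 3 normal libraries. The numbers of members that rose and fell in implantation B stand beside each name, and the dotted line is the median over all tested genes. The macrophage list lies at 0.90 in implantation B and -0.30 in implantation A, and the contractile list at -0.035 and 0.72.

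Markers of tissue that may adjoin the corpus cavernosum were compared as well. Keratinocyte and urothelial markers rose in 11 and fell in 2 of 15 cases, with PERP, a desmosomal protein, at 1.85, the keratins KRT4 and KRT5 at 1.30 and 1.33, and cadherin CDH1 at 1.99. Implantation A had a like summed level of this list, 4064 to 4084 CPM. In ECs+ implantation KRT4 stood at 0.367 to 0.441 CPM and KRT5 at 0 to 0.22 CPM, with all 15 libraries scaled together. In implantation B they stood at 1897 to 1920 and 1635 to 1680 CPM. EPCAM of the same list was alike in both, at 14.7 to 17.6 CPM in ECs+ implantation and 15.6 to 17.1 CPM in implantation B. Adipocyte genes fell in 10 of 11 cases, and PLIN1, which coats the lipid droplet, fell from 33.5 ± 4.33 to 2 ± 0.154 CPM, a log2 fold change of -4.07 (SE 0.17), whereas SCD, a desaturase that many cells use, rose by 2.24. The defining adipocyte gene ADIPOQ did not pass the filter on low counts in these libraries. Cartilage and bone genes rose in 7 and fell in 3 of 13 cases, 5 and 2 of them at least 2-fold. Aggrecan, ACAN, stood at 1.37 and PHEX, a phosphate-regulating peptidase of bone, at 5.32. The collagen chain COL9A2 was lower, at 6.25 to 8.07 CPM in implantation B and 19.8 to 24.7 CPM in normal. So was BGLAP, at 1.35 to 1.78 and 5.91 to 6.86 CPM, with all 15 libraries scaled together. Only 3 of the 15 skeletal muscle markers passed the filter, and their summed level was 7.25 to 7.98 CPM in implantation B and 5.29 to 6.75 CPM in normal.

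With members of the lists included, the largest rises among genes with a symbol and at least moderate level were those of FOSB, FOS, MMP12, CHI3L1, PAPPA2, EGR1, CCL21, SDS, JCHAIN and MMP3. CHI3L1, a secreted glycoprotein of activated macrophages and chondrocytes, rose from 1.74 ± 0.565 to 197 ± 5.98 CPM, a log2 fold change of 6.82 (SE 0.15). PAPPA2, a protease that frees insulin-like growth factor from its binding proteins, rose by 6.52, and SDS, serine dehydratase, by 5.63. JCHAIN, which joins secreted IgA and IgM, rose from 3.85 ± 0.726 to 187 ± 9.75 CPM, a log2 fold change of 5.60 (SE 0.11).

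The largest falls were those of BCAN, SAP25, MAPK15, PLIN1, OPRL1, DMKN, PDK4, S100A1, MYOC and IL3RA. BCAN, brevican, a proteoglycan best known from nervous tissue, had 6 counts in all of implantation B and 3747 in normal, a ratio of 533 downward (95% exact interval 245 to 1450, counting error only). It was present in implantation A at 42 to 43.3 CPM and near 0 in ECs+ implantation at 0.262 to 0.438 CPM. SAP25, a subunit of a corepressor complex, had 0, 0 and 47 counts in the libraries of implantation B and 343, 514 and 532 in those of normal, so 1 library held all of the group's counts. Its log2 fold change of -4.65 (SE 1.14, adjusted p = 0.00496, edgeR) lost its call in DESeq2 (adjusted p = 0.0728), and without implantation B 3 it was at least 256-fold lower, with 3 counts taken over the other 2 libraries. Its annotation overlaps LRCH4, as that of S100A1 overlaps S100A13, and whether reads were counted by strand is not given, so such pairs cannot be told apart. Many other genes named in the text overlap a neighbour too, among them PTGS2 (PLA2G4A), PTX3 (VEPH1), CYR61 (ZNHIT6) and DDIT3 (MARS). The same limit holds for them. IL3RA, the interleukin 3 receptor, fell from 507 ± 16.1 to 48.2 ± 2.35 CPM (-3.40), and MYOC, myocilin, from 287 ± 4.92 to 26.2 ± 0.691 CPM (-3.45). The nociceptin receptor OPRL1 changed by -3.92, the kinase MAPK15 by -4.43, the epidermal secreted protein DMKN by -3.86 and the calcium-binding S100A1 by -3.46.

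How far implantation B departed from normal beyond implantation A was tested directly in 1 fit of 9 libraries, in which the normal libraries cancel. There 5138 genes were higher and 4499 lower in implantation B than in implantation A, 53.6% of 17977 tested, and 805 and 758 of them at least 2-fold, or 4.48% and 4.22%. The highest against implantation A were FOSB (5.68), CHI3L1 (5.49), FOS (4.83), EGR1 (4.08), BTG2 (3.95) and MMP3 (3.71) on the log2 scale. The lowest were BCAN (-8.36), AOX1 (-4.18), PLIN1 (-3.76), SAP25 (-3.33), ADIRF (-2.60) and MUC19 (-2.58). AOX1, aldehyde oxidase, stood at 1.87, 1.22 and 1.6 CPM in implantation B, 14.5, 15.6 and 14 CPM in normal and 27.6 to 30.5 CPM in implantation A, so it was lowest in the first and highest in the last.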

How the data were processed

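Polyadenylated RNA of pig penile corpus cavernosum was sequenced in 15 libraries with a TruSeq kit, per the labels. Raw counts per gene and TPM values, both deposited by the authors, cover 26654 genes, and each column was assigned through the sample title it carries. The description of the ECs+ implantation samples also names the third normal sample, so that group's identity rests on titles and column names. Per the submitters' processing notes the tools were fastp, HISAT2 and HTSeq, with DESeq2, on build Sscrofa11.1, with no version stated; strand use and the making of the TPM values are not given in the sources used here.

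Implantation B and normal, 3 libraries each, were fitted with edgeR 4.0.16 in R 4.3.3: filterByExpr on the 2 groups, TMM factors, robust quasi-likelihood dispersions (glmQLFit) and two-sided F tests (glmQLFTest), adjusted by Benjamini-Hochberg and called under 0.05. Implantation A, implantation B and normal shared a fit of 9 libraries for the comparisons with implantation A. CPM of single genes carry TMM factors of the 6 libraries, those of implantation A and ECs+ implantation TMM factors of all 15, and summed levels and shares use library totals. The SE is a Wald estimate and the p-value an F test, so the 2 can diverge where folds are large. Libraries of 1 group differed by more than sampling noise, at a chi-square over its degrees of freedom of 1.44 to 1.71 in implantation B and 2.28 to 5.46 in normal. A floor of 3 counts stood at 0.154 to 0.174 CPM in implantation B. Coordinates come from the RefSeq table of the same build, in which 99.9% of the tested genes were found.

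Of 30 fixed genes, NR4A1 and HSPA1A are not analysed here, and the values of a few list members are not reported here. Beside these the text names the 10 largest changes each way (a symbol, adjusted p under 0.05, mean log2 CPM of at least 3, no overlap between groups), up to 4 members of each list with the smallest p, members that account for counts of 5 or fewer, and the 6 largest each way against implantation A; other members were chosen after their values were seen. The genes, lists and comparisons were all chosen with earlier results of these data known. Scripts were tested on simulated counts. Alternatives were DESeq2 1.42.0, limma 3.58.1 (voom with quality weights, and trend on log2 of the deposited TPM plus 1 or 0.1), other scalings and filters, a replicate block, more libraries in the fit, a stricter threshold of 0.01 and leaving out each library.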

Additional observations from a re-analysis of the deposited data

Results flagged for a closer look

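A few of the named genes moved in opposite directions from normal in the 2 implantation groups, with every test passed, the direct test of implantation B against implantation A included. BTG2, AOX1, ADIRF and MUC19 were named as large differences that had passed this direct test, so for them its outcome was set by the choice. How many of all tested genes moved in opposite directions was not counted. BTG2 differed by 3.95 on the log2 scale (adjusted p = 2.95e-38, edgeR), at 3.53 in implantation B and -0.41 in implantation A against the same normal libraries. MYH11, smooth muscle myosin, differed by -0.785, at -0.13 and 0.66, and GUCY1A3, a subunit of the nitric oxide sensor, by -0.498, at -0.31 and 0.20. AOX1, aldehyde oxidase, differed by -4.18, at -3.22 and 0.96. ADIRF, a gene of adipogenesis, differed by -2.6, at -1.21 and 1.39, and the mucin gene MUC19 by -2.58, at -1.01 and 1.58. In each of these the 3 libraries of implantation B lay on 1 side of the 3 normal libraries without overlap. This does not set them apart, since 75.7% of all tested genes were called in this comparison. The share of all genes without overlap was not counted.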

How the results depend on the processing

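The count of genes that differed between implantation B and normal ran from 11925 to 14029 over 13 alternatives, and from 12700 to 13439 when 1 library was left out, against 13234. The count of at least 2-fold changes ran from 4558 to 4782 when 1 library was left out, and it fell to 2789 (1377 higher, 1412 lower) with limma-trend on log2(TPM + 1), where the pseudocount shrinks low genes. Against implantation A the count ran from 7750 to 11006 over 7 alternatives and from 8677 to 8805 without 1 library. With library totals in place of TMM factors the split of at least 2-fold changes was 1455 higher and 3748 lower, and against implantation A it was 2405 and 8601 of all called genes. Of the genes named, 6 that had not passed changed sign in at least 1 alternative. With upper quartile factors, library totals, log2(TPM + 1) and log2(TPM + 0.1), in that order, ACTA2 stood at -0.088, -0.27, -0.026 and -0.026, KLF2 at -0.038, -0.22, -0.0086 and -0.0086, and DDIT3 at -0.098, -0.28, -0.072 and -0.075, and with library totals each passed as lower. ACTA2 also passed with upper quartile factors (adjusted p = 0.0367). DDIT3 stood at -0.00096 with a floor of 1 CPM and -0.023 with limma-voom, and CD14 at 0.0020 with no low-count filter, while with upper quartile factors (-0.15) and library totals (-0.34) CD14 passed as lower. Without 1 library CD14 ran from -0.057 to 0.016, CD3E from -0.49 to 0.17, DDIT3 from -0.070 to 0.14 and IL11 from -0.081 to 0.61. Nothing states that the replicate numbers pair the libraries. Deviations of same-numbered libraries from their group means correlated at -0.0897, -0.000658 and -0.148, and those of differently numbered libraries at -0.052 to 0.141. With 3 libraries per group these values cannot decide whether the libraries are paired. With a replicate block 13077 genes were called, 4510 at least 2-fold, and 9452 against implantation A. A floor of 3 counts limits low genes such as CXCL8.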

Other observations

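The genes in this paragraph that lie outside the rule for named genes were chosen after their values were seen. Of 18 genes with a log2 fold change of at least 8 in implantation B against normal, 13 are numbered LOC entries without a symbol. One of them, LOC396781, carries the synonym IGHG, the immunoglobulin gamma heavy chain, in the RefSeq table. It held 91068 counts in implantation B and 126 in normal, a log2 fold change of 9.72 (adjusted p = 1.59e-31, edgeR). With all 15 libraries scaled together it stood at 1852 to 1902 CPM in implantation B, at 212 to 219.5 in implantation A, at 27.8 to 31.6 in ECs+ implantation and at 1.77 to 2.47 in normal. The defect libraries, 2 of them shallow, stood at 3094, 3160 and 3854 CPM, above implantation B, and no 2 of the 5 groups overlapped. Of 10 tested B and plasma cell markers 6 rose, with a median of 1.20, among them JCHAIN (5.60), XBP1 (1.07), MZB1, a plasma cell chaperone (1.62), and POU2AF1, a B cell coactivator (3.87), and PAX5, the factor of B cell identity, fell (-1.17). AMCF-II, listed there with the synonym CXCL6, a neutrophil-attracting chemokine, had 136 counts in implantation B and 0 in normal, at least 53.1-fold higher with 3 counts taken over the normal group. TNIP3, an inducible inhibitor of NF-kappa-B, had 183 counts against 0, at least 71.4-fold higher by the same floor.

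Steroid receptor and clock genes rose in 15 of 19 cases, with a median of 0.68, and ARNTL (-0.50) and PER1 (-0.14) fell, the latter not without implantation B 3, normal 1 or normal 2 (adjusted p of 0.0809 to 0.122). The clock repressor NR1D2 rose by 1.74 and NFIL3, a clock-linked leucine zipper factor, by 1.75. Proliferation genes rose in 16 and fell in 4 of 23 cases, with TOP2A, topoisomerase II alpha, at 1.51 and the mitotic kinase AURKB at -1.50, and 12 of them were lower in implantation B than in implantation A. Among markers of nerve and Schwann cells 9 of 15 rose and 3 fell, with the neurofilament genes NEFL at 4.21 and NEFM at 2.67. Mast cell and erythroid markers were too few to describe as lists, with 5 and 2 tested members, of which 2 and 1 rose and 1 and 1 fell.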
